A study of Macaca mulatta with 10 samples.

Results

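The genes described here stood higher at stage 2 of a stepwise differentiation of macaque embryonic stem (ES) cells than both before it and after it. They were chosen by a rule on the deposited values. The mean over the 6 stage 2 arrays had to exceed the ES mean and the IVDS3 mean by at least 1 on the log2 scale, and the mean of each stage 2 group had to exceed every ES and IVDS3 array. Of 13191 genes measured, 72 met these conditions. The rule names 12 developmental genes to be left out, of which 7 had met it (PAX3, EMX2, LMX1A, HAPLN1, COLEC12, MSX1 and BMPER), so 65 genes remained, 0.493% of all genes. Of these, 63 carry a gene name and 2 a locus number. They are called the stage 2 peak genes below.

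The arrays were Affymetrix rhesus macaque arrays of ORMES6, a rhesus ES cell line, in a study of differentiation toward liver cells that, per its title, depended on colony topology. There were 5 groups of 2 arrays: ES cells, differentiated cultures at stage 2 (IVDS2), the central foci of stage 2 colonies (IVDS2-C), the periphery of the colonies (IVDS2-P), and cultures at stage 3 (IVDS3). All cells were of this 1 line and grew on mouse embryonic fibroblast feeders in medium with serum replacement and basic fibroblast growth factor, and they were made to differentiate on hESdF, cells like fibroblasts that descend from human ES cells. The labels give no days for the stages, put the same cell type entry (ESC) on every array, and do not state that the replicates of a group were separate cultures. The p-values thus measure only how far these samples spread, which may be technical.

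Early embryonic cells that leave pluripotency choose their fate under a few secreted signals, above all the WNT, bone morphogenetic protein (BMP) and hedgehog families. Many genes of these pathways are switched on for a short time and off again, and a pathway often switches on its own inhibitors as it becomes active. At the edge of the early neural plate, where WNT and BMP signals meet, cells of the neural crest arise, a migratory population that later gives nerve, pigment, bone and cartilage cells.

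Each deposited value had been centred so that a probe set's median over the 10 arrays is 0. The values therefore compare arrays within 1 gene, and they give neither an absolute level nor an order of levels between genes. The rule asks the means of the stage 2 groups, which hold 6 of the 10 arrays, to be high. By this centring, the lowest stage 2 arrays of a peak gene thus mostly lie near 0. An array reads all cells of a sample together, so fewer cells of a type and less RNA per cell cannot be told apart, and 2 arrays per group limit the precision. The markers of pluripotent cells measured, 7 of 8, were POU5F1, NANOG, SOX2, DPPA4, LIN28B, SALL4 and DNMT3B. They had medians of 1.72 and 1.94 on the ES arrays, between -1.48 and 1.27 on the stage 2 arrays, and -2.93 and -2.87 on the IVDS3 arrays. Not every marker followed these medians, since 1 of the 7 rose in IVDS3 against ES cells. Fibroblast markers (10 measured of 12) had medians of -0.09 and -0.03 on the ES arrays, between -0.30 and 0.16 on the stage 2 arrays, and 1.19 and 0.96 on the IVDS3 arrays, and liver markers (6 measured of 7) had array medians between -0.38 and 0.46. Neuron markers (5 measured of 6, among them STMN2 and ELAVL4, which the rule leaves out by name) had medians of -0.99 and -1.50 in ES cells, between -1.46 and 0.65 on the stage 2 arrays (-0.62 and -1.46 in IVDS2), and 0.86 and 0.50 in IVDS3. At stage 2, 4 of these 5 stood above their ES means, with a median difference of 1.04, and the part of such cells in the values of the stage 2 peak genes was not tested.

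The median stage 2 peak gene stood 1.66 above its ES mean (lowest 1.01, highest 3.93) and 1.54 above its IVDS3 mean (lowest 1.02, highest 3.05) on the log2 scale. The excess over the higher of these means had a median of 1.43, was at least 2 in 7 genes and was between 1 and 1.5 in 40. These values chose the genes and are given as a description. In 57 of the 65 genes all 6 stage 2 arrays lay above all ES and IVDS3 arrays. In the other 8 (ANO3, BHLHE22, C5, EPOP, KIT, KLHDC8A, RND1 and SP5) at least 1 stage 2 array fell among them. The peak lay in IVDS2 for 28 genes, in IVDS2-C for 10 and in IVDS2-P for 27.

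By array, the median over the 65 genes was -0.91 and -1.42 in ES cells, 0.46 and 0.63 in IVDS2, 0.40 and 0.00 in IVDS2-C, 0.24 and 0.73 in IVDS2-P, and -1.10 and -1.12 in IVDS3. ES replicate 2 read lower than ES replicate 1, and IVDS2-C replicate 2 was the lowest stage 2 array. The replicates of a group lay farther apart for the stage 2 peak genes than for all genes: the SD of their difference over genes was 0.67 against 0.37 in ES cells, 0.51 against 0.26 in IVDS2, 0.41 against 0.29 in IVDS2-C, 0.30 against 0.25 in IVDS2-P and 0.26 against 0.21 in IVDS3.

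**Figure D1:**
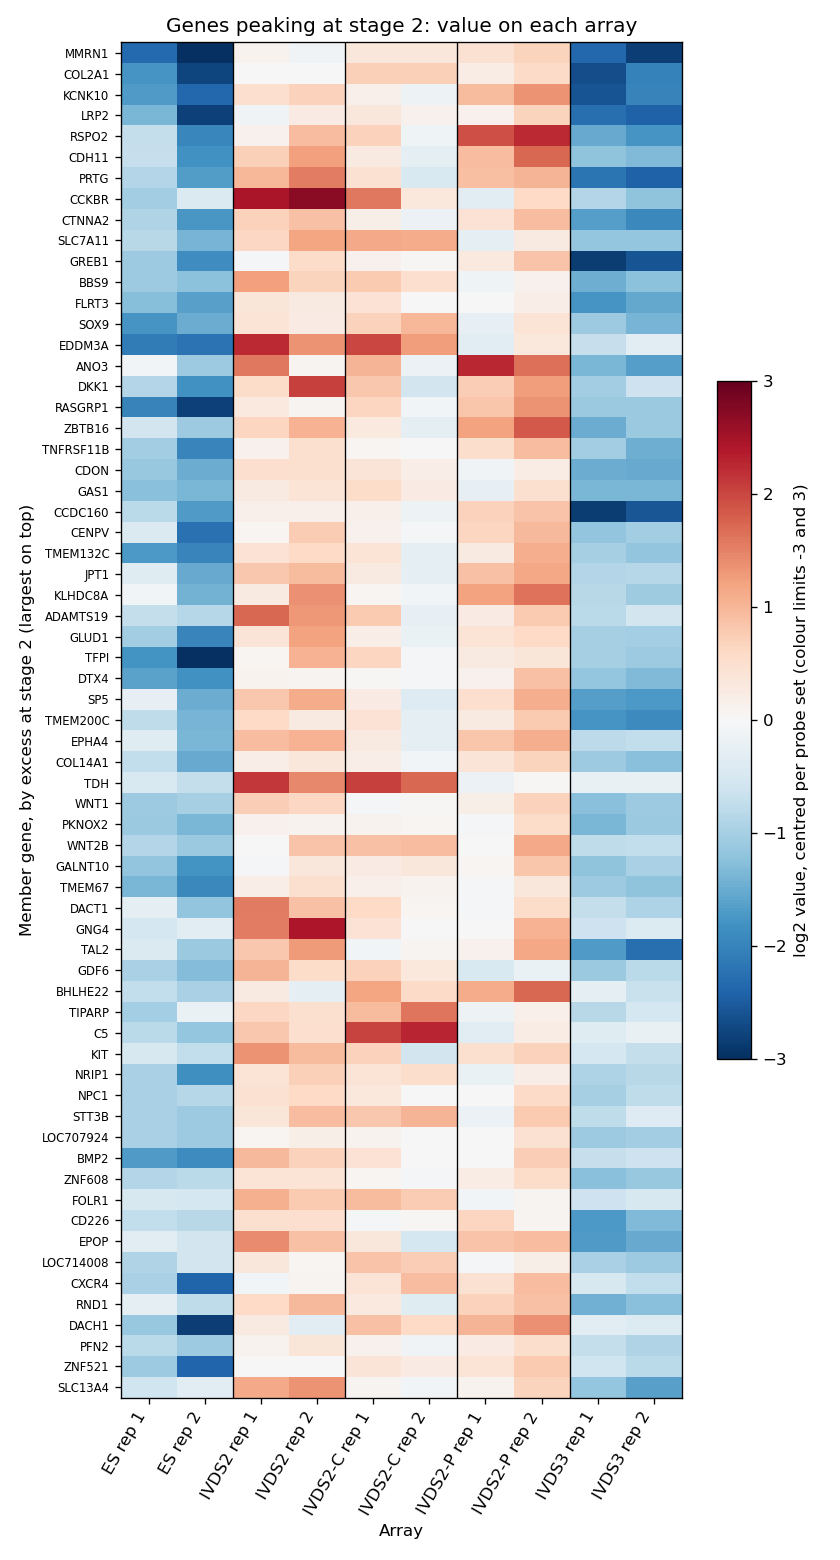
Values of the 65 stage 2 peak genes (rows, largest excess on top) on the 10 arrays (columns, by stage), as log2 values centred per probe set, with colours limited to -3 and 3. The 6 stage 2 columns are mostly white to red, with medians between 0.00 and 0.73, and the ES and IVDS3 columns are blue, with medians between -1.42 and -0.91.

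The excess ran on across the threshold of 1. The genes just inside it were SLC13A4, ZNF521 and PFN2, with an excess of 1.013, 1.016 and 1.021, and those just outside it were ANKRD6, ADAMTS9 and SLC25A34, with 0.996, 0.978 and 0.974. For 39 of the stage 2 peak genes the value rests on 1 probe set. The other 26 have 66 probe sets, of which 49 met the rule by themselves. Every probe set met it in 13 of these genes, some in 12 and none in GDF6. The 2 probe sets of GDF6 had an excess of -0.19 and 0.54, so its place among the peak genes comes from averaging unlike readings. In COL14A1 1 of 3 probe sets met the rule, and in TMEM67 3 of 6.

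The largest excess was that of MMRN1, which encodes multimerin, a carrier protein of platelets and endothelium. MMRN1 read -2.34 and -4.91 in ES cells, 0.11 and -0.11 in IVDS2, 0.35 and 0.34 in IVDS2-C, 0.46 and 0.66 in IVDS2-P, and -2.35 and -2.83 in IVDS3. The 6 stage 2 arrays lay within 1 unit of each other, whereas the ES arrays lay farther from each other than the ES mean from the IVDS3 mean. Of 5 endothelial markers (PECAM1, CDH5, KDR, TEK and VWF), 0 stood above ES cells at stage 2, with a median difference of -0.27. The part of endothelial or platelet-forming cells in the values of MMRN1 was not tested. COL2A1, the main collagen of cartilage, read -1.78 and -2.76 in ES cells, -0.01 and 0.01 in IVDS2, 0.71 and 0.71 in IVDS2-C, 0.22 and 0.57 in IVDS2-P, and -2.65 and -2.02 in IVDS3. Both of its probe sets met the rule, with an excess of 2.28 and 2.78. KCNK10, a background potassium channel, read -1.69 and -2.36 in ES cells, 0.50 and 0.70 in IVDS2, 0.16 and -0.16 in IVDS2-C, 0.96 and 1.35 in IVDS2-P, and -2.59 and -2.01 in IVDS3. Its stage 2 arrays did not overlap between centre and periphery. LRP2, or megalin, is an endocytic receptor of the early neural epithelium that also takes part in hedgehog signalling. It read -1.38 and -2.79 in ES cells, between -0.10 and 0.67 at stage 2 with a median of 0.19, and -2.27 and -2.42 in IVDS3, and its 2 probe sets had an excess of 2.31 and 2.34.

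The next genes of this order were RSPO2 and CDH11, described with their groups below, and PRTG. PRTG, protogenin, is a cell surface protein of the immunoglobulin superfamily known from the early mouse neural tube and mesoderm. It read -0.88 and -1.67 in ES cells, 0.99 and 1.53 in IVDS2, 0.46 and -0.46 in IVDS2-C, 0.91 and 1.03 in IVDS2-P, and -2.19 and -2.42 in IVDS3, an excess of 2.02. CTNNA2, the alpha catenin of neurons, stood 1.82 above its ES mean and 2.29 above its IVDS3 mean. BBS9 encodes a subunit of the BBSome, which moves membrane proteins in cilia. It stood 1.70 above ES cells and 1.89 above IVDS3, with 2 of its 3 probe sets meeting the rule. GREB1, an oestrogen-induced gene, stood 1.77 above ES cells and 3.02 above IVDS3. EDDM3A, known as an epididymal secretory protein, stood 3.30 above ES cells and 1.65 above IVDS3.

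Of the WNT pathway, 6 genes were stage 2 peak genes: the ligands WNT1 and WNT2B, the WNT enhancer RSPO2, the WNT target SP5, and the modulators DKK1 and DACT1. WNT1 read -1.10 and -0.99 in ES cells, 0.73 and 0.63 in IVDS2, -0.03 and 0.03 in IVDS2-C, 0.17 and 0.68 in IVDS2-P, and -1.26 and -1.09 in IVDS3. Replicates of WNT1 lay within 0.2 of each other everywhere but in IVDS2-P. WNT2B read -0.87 and -1.11 in ES cells, 0.01 and 0.86 in IVDS2, 0.89 and 0.93 in IVDS2-C, -0.01 and 1.14 in IVDS2-P, and -0.77 and -0.74 in IVDS3. For WNT2B the IVDS2 and IVDS2-P replicates each spanned most of the stage 2 range, so no order of the stage 2 groups can be read. RSPO2 encodes an R-spondin, which keeps WNT receptors on the cell surface. It read -0.71 and -1.96 in ES cells, 0.13 and 0.93 in IVDS2, 0.68 and -0.13 in IVDS2-C, 1.93 and 2.23 in IVDS2-P, and -1.52 and -1.76 in IVDS3. The IVDS2-P arrays of RSPO2 stood above all others.

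SP5, a transcription factor that WNT signals induce directly, read -0.24 and -1.49 in ES cells, 0.80 and 1.11 in IVDS2, 0.24 and -0.39 in IVDS2-C, 0.50 and 1.10 in IVDS2-P, and -1.65 and -1.72 in IVDS3. IVDS2-C replicate 2 lay below ES replicate 1, so these groups overlapped. DKK1, a secreted inhibitor that binds the WNT co-receptors, read -0.88 and -1.82 in ES cells, 0.54 and 2.05 in IVDS2, 0.81 and -0.54 in IVDS2-C, 0.73 and 1.25 in IVDS2-P, and -1.05 and -0.61 in IVDS3. The replicates of DKK1 were wide apart in both IVDS2 and IVDS2-C. DACT1, which binds Dishevelled inside the cell, read -0.29 and -1.18 in ES cells, 1.57 and 0.87 in IVDS2, 0.59 and 0.07 in IVDS2-C, -0.07 and 0.54 in IVDS2-P, and -0.72 and -0.92 in IVDS3. Its IVDS2 arrays were the highest.

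The hedgehog pathway gave CDON and GAS1, both co-receptors that bind the ligand Sonic hedgehog at the cell surface. CDON read -1.14 and -1.50 in ES cells, 0.51 and 0.48 in IVDS2, 0.39 and 0.20 in IVDS2-C, -0.11 and 0.22 in IVDS2-P, and -1.48 and -1.51 in IVDS3. GAS1 read -1.25 and -1.38 in ES cells, 0.26 and 0.41 in IVDS2, 0.54 and 0.25 in IVDS2-C, -0.25 and 0.48 in IVDS2-P, and -1.38 and -1.38 in IVDS3. Both genes had all 6 stage 2 arrays above all ES and IVDS3 arrays. LRP2, above, followed the same order of stages.

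BMP2, a ligand of the BMP family, read -1.70 and -1.89 in ES cells, 0.98 and 0.68 in IVDS2, 0.44 and -0.02 in IVDS2-C, 0.02 and 0.73 in IVDS2-P, and -0.68 and -0.63 in IVDS3. The IVDS3 arrays lay between the ES arrays and the stage 2 arrays. One of its 2 probe sets met the rule, with an excess of 1.41, and the other had 0.85. GDF6, another ligand of this family, read -0.97 and -1.30 in ES cells, 1.01 and 0.56 in IVDS2, 0.69 and 0.32 in IVDS2-C, -0.46 and -0.20 in IVDS2-P, and -1.12 and -0.81 in IVDS3. Since its probe sets disagree, these values describe their mean only. One read -1.45 in IVDS2-C and 0.07 in IVDS2-P, and the other 2.46 in IVDS2-C and -0.73 in IVDS2-P, as group means.

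**Figure D2:**
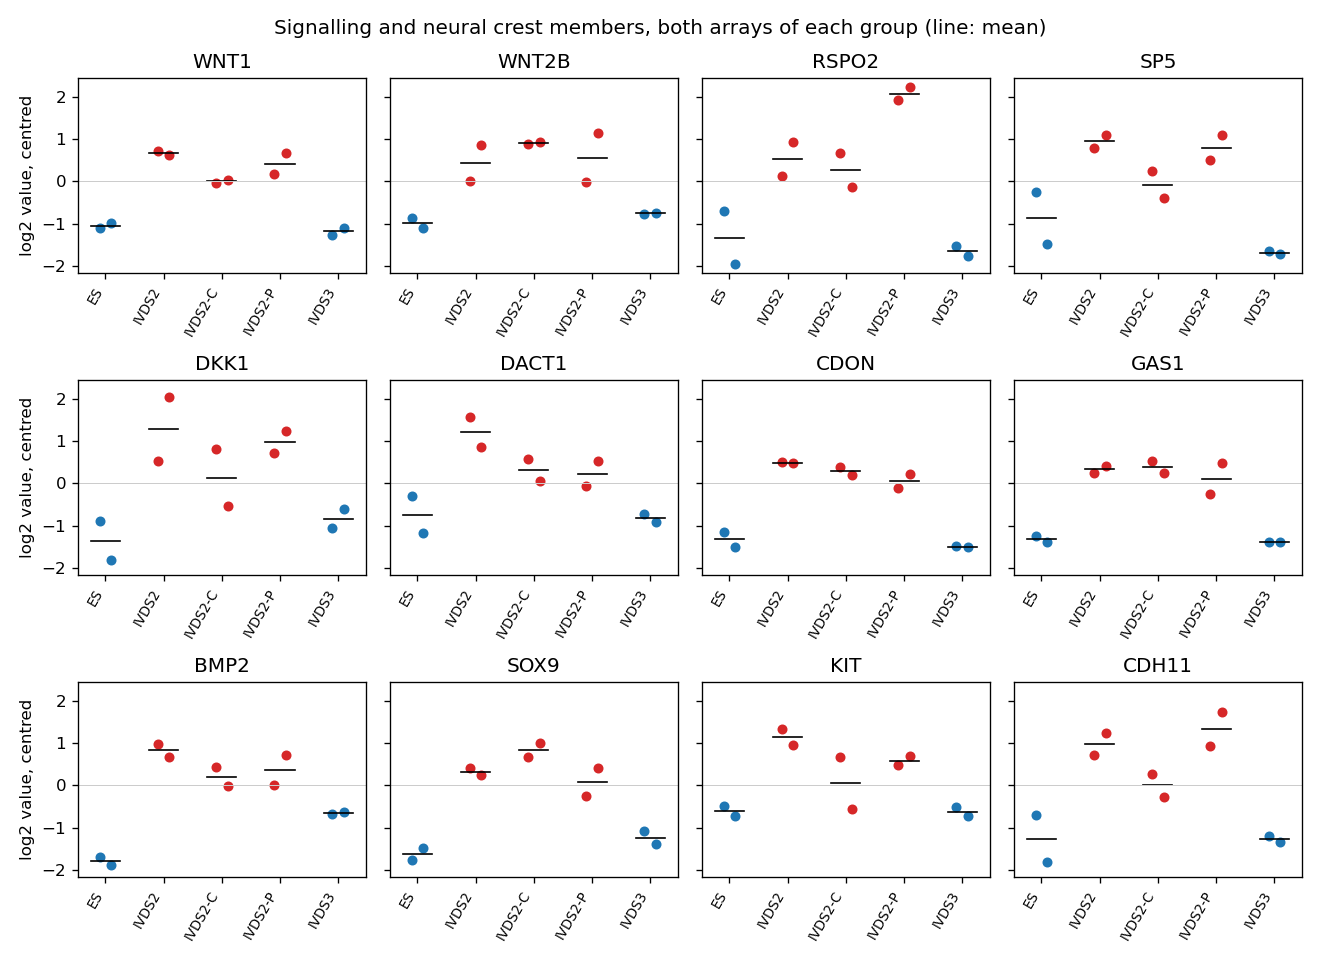
Log2 values, centred per probe set, of 12 stage 2 peak genes of the WNT (WNT1, WNT2B, RSPO2, SP5, DKK1, DACT1), hedgehog (CDON, GAS1), BMP (BMP2) and neural crest (SOX9, KIT, CDH11) lists, on both arrays of each group. Points are arrays, in red at stage 2 and in blue in ES cells and IVDS3, and lines are group means. RSPO2 is highest in IVDS2-P, at 1.93 and 2.23, and BMP2 in IVDS3, at -0.68 and -0.63, stays above BMP2 in ES cells.

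Among neural crest and neural border genes, SOX9, KIT and CDH11 were stage 2 peak genes. SOX9, a transcription factor of early neural crest and of cartilage, read -1.77 and -1.48 in ES cells, 0.41 and 0.24 in IVDS2, 0.68 and 1.00 in IVDS2-C, -0.24 and 0.42 in IVDS2-P, and -1.08 and -1.39 in IVDS3. KIT, the receptor of stem cell factor and needed by pigment cell precursors, read -0.49 and -0.73 in ES cells, 1.34 and 0.96 in IVDS2, 0.68 and -0.55 in IVDS2-C, 0.49 and 0.69 in IVDS2-P, and -0.52 and -0.72 in IVDS3. IVDS2-C replicate 2 of KIT lay within the ES and IVDS3 range. CDH11, a cadherin of mesenchymal and migrating crest cells, read -0.69 and -1.82 in ES cells, 0.72 and 1.24 in IVDS2, 0.28 and -0.28 in IVDS2-C, 0.93 and 1.73 in IVDS2-P, and -1.20 and -1.33 in IVDS3. All 3 probe sets of CDH11 met the rule, with an excess between 1.89 and 1.93.

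Guidance and adhesion genes were represented by EPHA4, an ephrin receptor, and FLRT3, a cell surface protein that binds guidance receptors. EPHA4 read -0.36 and -1.37 in ES cells, between -0.28 and 1.08 at stage 2 with a median of 0.88, and -0.79 and -0.74 in IVDS3. FLRT3 read -1.28 and -1.62 in ES cells, between -0.02 and 0.44 at stage 2 with a median of 0.23, and -1.78 and -1.54 in IVDS3. Both probe sets of each gene met the rule. Matrix genes were COL2A1, COL14A1, a collagen that binds to fibrils, and ADAMTS19, a secreted metalloprotease. ADAMTS19 stood 1.55 above ES cells and 1.45 above IVDS3, with 1.73 and 1.30 in IVDS2 as its highest arrays. COL14A1 stood 1.41 above ES cells and 1.44 above IVDS3, but its 3 probe sets had an excess between -0.14 and 1.68. CCKBR, a receptor of gastrin and cholecystokinin that stands in the trophoblast and amnion list, read -1.04 and -0.43 in ES cells, 2.45 and 2.70 in IVDS2, 1.58 and 0.32 in IVDS2-C, -0.32 and 0.60 in IVDS2-P, and -0.89 and -1.21 in IVDS3. Its IVDS2 arrays were the highest, and IVDS2-P replicate 1 was the lowest stage 2 array.

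Beside these, 46 stage 2 peak genes stood in 0 of the 13 gene lists used, and they are sorted here by textbook role, after their values were seen. Nuclear regulators were ZBTB16, TAL2, BHLHE22, DACH1, ZNF521, ZNF608, PKNOX2, NRIP1 and EPOP, with an excess between 1.02 for ZNF521 and 1.62 for ZBTB16. TAL2, a helix-loop-helix factor, read -0.43 and -1.11 in ES cells, between -0.08 and 1.27 at stage 2 with a median of 0.47, and -1.70 and -2.27 in IVDS3. DACH1, a co-regulator of eye and limb development, read -1.13 and -2.83 in ES cells, between -0.33 and 1.38 at stage 2 with a median of 0.74, and -0.35 and -0.42 in IVDS3, so its excess of 1.02 is that over IVDS3.

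Transport and metabolism were represented by SLC7A11, the cystine and glutamate exchanger, SLC13A4, a sulfate transporter, FOLR1, a folate receptor, NPC1, which exports cholesterol from lysosomes, GLUD1, glutamate dehydrogenase, TDH, threonine dehydrogenase, and the membrane protein ANO3. Their excess was between 1.01 for SLC13A4 and 1.79 for SLC7A11. TMEM67, like BBS9 a gene of the cilium, had an excess of 1.36. STT3B and GALNT10, enzymes that attach sugars to proteins, had 1.20 and 1.38.

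Genes of signalling and of the blood and vessel systems were RASGRP1, RND1, GNG4, CXCR4, TNFRSF11B, CD226, DTX4, C5 and TFPI. CXCR4, the chemokine receptor that guides migrating cells, read -0.97 and -2.40 in ES cells, between -0.08 and 0.93 at stage 2 with a median of 0.43, and -0.49 and -0.75 in IVDS3. TFPI, the inhibitor of tissue factor in coagulation, read -1.79 and -4.67 in ES cells, between -0.06 and 1.04 at stage 2 with a median of 0.32, and -1.0 and -1.10 in IVDS3. As in MMRN1, the ES arrays of TFPI lay far apart. GNG4, a G protein gamma subunit, read 1.54 and 2.42 in IVDS2, 0.44 and -0.01 in IVDS2-C and 0.01 and 1.04 in IVDS2-P, against -0.52 and -0.33 in ES cells and -0.61 and -0.40 in IVDS3. The remaining named genes, CCDC160, CENPV, TMEM132C, TMEM200C, JPT1, KLHDC8A, PFN2 and TIPARP, had an excess between 1.02 for PFN2 and 1.56 for CCDC160, and the 2 genes with locus numbers had 1.16 and 1.08.

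Because the rule used every array, each array was also left out in turn, the rule was applied to the other 9, and the genes chosen so were read on the array left out. The arrays it was set against had been used in the choice, as had the other array of its group. The choice thus favours a high share, and the share of all genes is not a like measure. These shares are given as a description. A left-out IVDS2 array stood above every ES and IVDS3 array for 66 of 66 chosen genes in replicate 1 (15.4% of all genes) and for 63 of 66 in replicate 2 (16.6% of all genes). For IVDS2-C it did so for 56 of 56 genes in replicate 1 (12.6% of all genes) and for 61 of 74, or 82.4%, in replicate 2 (12.3% of all genes). For IVDS2-P it did so for 69 of 73 genes in replicate 1 (15.9% of all genes) and for 60 of 60 in replicate 2 (16.8% of all genes). IVDS2-C replicate 2 was the stage 2 array on which the smallest share of chosen genes read high. The stage 2 peak genes ANO3, EPOP, KIT, KLHDC8A, RND1 and SP5 were among the 13 that did not.

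A left-out ES array lay below the IVDS2, IVDS2-C and IVDS2-P means for 70 of 79 chosen genes, 88.6%, in replicate 1 (26.7% of all genes) and for 58 of 59 in replicate 2 (27.1% of all genes). For IVDS3 it did so for 67 of 67 genes in replicate 1 (42.0% of all genes) and for 64 of 65 in replicate 2 (43.7% of all genes). The 9 genes that ES replicate 1 did not read so, among them ROR2, GAD1 and ZEB2, were not stage 2 peak genes under the full rule.

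**Figure D3:**
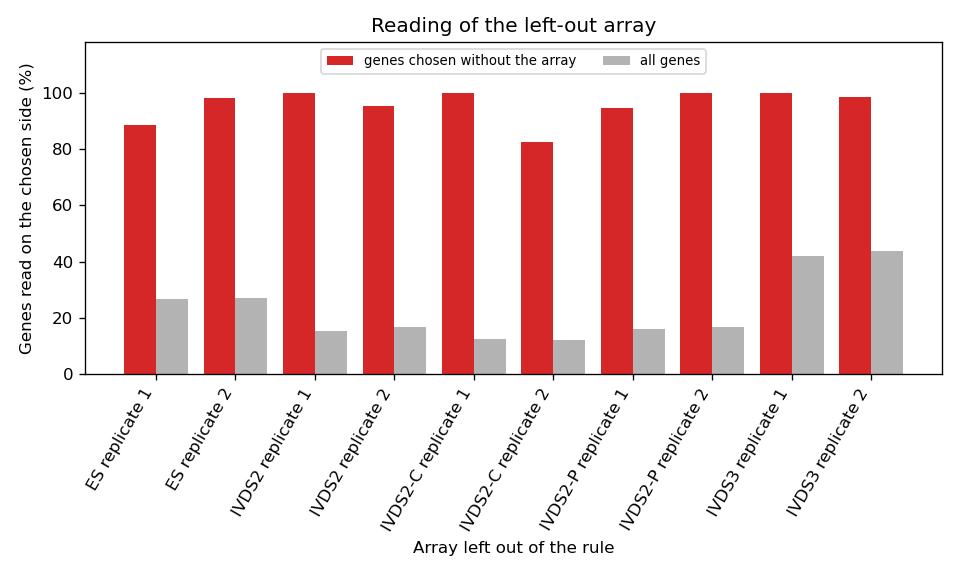
Share (%) of the genes chosen without an array that this array read on the chosen side (red), beside the share of all genes (grey), for each of the 10 arrays. The red bars lie between 82.4%, for IVDS2-C replicate 2, and 100%, and the grey bars between 12.3% and 43.7%.

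The rule asks the colony centre and the periphery both to be high and does not use which is higher. It does choose genes that differ between stage 2 and the other groups, and it limits how low either region can be. The share of genes called may thus be shaped by the choice, and nothing is read from it. In the comparison of IVDS2-C with IVDS2-P, limma called 12 of the 65 genes, or 18.5%, with the adjusted p (over all genes, by Benjamini-Hochberg) below 0.05, against 9.59% of all genes. Of these, 8 were higher in the centre, against 5.64% of all genes, and 4 were lower, against 3.95% of all genes. This balance turned with single arrays: without IVDS2-C replicate 1 it was 4 higher and 9 lower (6.22% and 6.0% of all genes), without IVDS2-C replicate 2 it was 4 and 0 (2.4% and 0.432% of all genes), and 6 and 0 where IVDS2-P replicate 2 was left out (3.25% and 0.766% of all genes). C5, the complement component, and TDH, which starts threonine breakdown, were higher in the centre, and RSPO2, ZBTB16 and KCNK10 were lower there. At an unadjusted p under 0.05 there were 30 of 65, beside 26.0% of all genes. The median difference was -0.36 on the log2 scale, against -0.03 for all genes. It was 0.08 between the arrays numbered 1 (34 genes above 0 and 31 below) and -0.65 between those numbered 2 (13 above and 52 below). Leaving out 1 of these arrays gave medians between -0.53 (IVDS2-P replicate 1 left out) and -0.11 (its replicate 2 left out). IVDS2-C replicate 2 correlated with the IVDS3 arrays at 0.64 and 0.67 over all genes, and IVDS2-C replicate 1 at 0.37 and 0.39. The pluripotency markers had medians of -0.29 and -1.48 in IVDS2-C, against 1.27 and 0.90 in IVDS2-P, and 5 of 7 fell. Of the fibroblast markers 3 of 10 rose and 1 fell. The part of either in these differences was not tested.

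C5 read 2.03 and 2.29 in IVDS2-C, against -0.32 and 0.22 in IVDS2-P. It rose by 2.21 ± 0.21 (SE) on the log2 scale, with an adjusted p of 0.000759. TDH read 2.06 and 1.72 in IVDS2-C, against -0.18 and 0.03 in IVDS2-P, and rose by 1.96 ± 0.22 with an adjusted p of 0.00148. Neither call depended on any single array. In the undivided cultures, TDH stood at 2.12 and 1.43 in IVDS2, like the centre, while C5 stood at 0.81 and 0.50, between centre and periphery. The periphery of both genes lay near IVDS3, with means of -0.05 against -0.30 for C5 and -0.07 against -0.22 for TDH. Both thus met the rule mainly through IVDS2 and IVDS2-C, so the choice favours a gap between their centre and periphery.

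The other calls were lost without at least 1 array. EDDM3A read 2.01 and 1.26 in IVDS2-C, against -0.31 and 0.31 in IVDS2-P, a rise of 1.63 ± 0.33 (adjusted p 0.0193, but 0.0578 without IVDS2-C replicate 1 and 0.131 without IVDS2-P replicate 1). SLC7A11 read 1.13 and 1.12 in IVDS2-C, against -0.26 and 0.26 in IVDS2-P, a rise of 1.13 ± 0.25 (adjusted p 0.0243, but 0.0533 and 0.13 without replicates 1 and 2 of IVDS2-C and 0.159 without IVDS2-P replicate 1). FOLR1 read 0.94 and 0.77 in IVDS2-C, against -0.09 and 0.09 in IVDS2-P, a rise of 0.85 ± 0.13 (adjusted p 0.00585, but 0.0595 without IVDS2-P replicate 1). In these 3 genes the centre and periphery arrays did not overlap. Both centre arrays lay above both periphery arrays in 13 of the 65 genes, against 25.4% of all genes, and both periphery arrays above both centre arrays in 30, against 35.5% of all genes. TIPARP, an ADP-ribosyltransferase induced through the aryl hydrocarbon receptor, rose by 1.28 ± 0.29 (adjusted p 0.0269, but 0.209 without IVDS2-C replicate 2 and 0.16 and 0.0713 without replicates 1 and 2 of IVDS2-P). GDF6 had a mean difference of 0.83 ± 0.21 (adjusted p 0.0378), which averages a lower reading of the centre on 1 probe set with a higher one on the other, and the most variable of them alone gave 3.19. The mean kept the call only without an ES or IVDS2 array. Its adjusted p was 0.128 and 0.0732 without replicates 1 and 2 of IVDS2-C, 0.21 and 0.0898 without those of IVDS2-P, and 0.0555 without either IVDS3 array.

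On the lower side, RSPO2 fell by 1.81 ± 0.42 in the centre relative to the periphery (adjusted p 0.0315, but 0.238 without IVDS2-C replicate 2, 0.113 and 0.14 without replicates 1 and 2 of IVDS2-P, and 0.055 without either IVDS3 array). ZBTB16, a zinc finger repressor, read 0.30 and -0.30 in IVDS2-C, against 1.21 and 1.84 in IVDS2-P. It fell by 1.53 ± 0.29 (adjusted p 0.0141, but 0.11 without IVDS2-C replicate 2 and 0.0882 without IVDS2-P replicate 2). KCNK10 fell by 1.15 ± 0.26 (adjusted p 0.0293, but 0.21 without IVDS2-C replicate 2 and 0.0763 and 0.149 without replicates 1 and 2 of IVDS2-P). EPOP, which binds the repressive Polycomb complex PRC2, fell by 0.99 ± 0.27 at an adjusted p of 0.0499. That call held only without IVDS2-C replicate 1, and without any other array the adjusted p lay between 0.05 and 0.332. Without IVDS2-C replicate 2 its difference was -0.56. Of the 19 stage 2 peak genes in the lists, RSPO2 and GDF6 were the only 2 called here, against 9.59% of all genes. SOX9 differed by 0.75 ± 0.22 (adjusted p 0.0696), CDH11 by -1.33 ± 0.39 (adjusted p 0.064), EPHA4 by -0.96 ± 0.30 (adjusted p 0.0759) and WNT1 by -0.43 ± 0.16 (adjusted p 0.139), none of which passed. With 1 array left out, the difference lay between 0.42 and 1.08 for SOX9, -1.73 and -0.93 for CDH11, and -1.24 and -0.68 for EPHA4. The outcome changed without IVDS2-P replicate 2 for SOX9, without either ES array for CDH11, and without either ES array or IVDS2-C replicate 1 for EPHA4. An ES array enters this comparison only through the spread of the fit. SOX9, CDH11 and EPHA4 are thus not shown to be alike in both regions. Leaving out IVDS2-C replicate 2 or either IVDS2-P array lowered the count of calls by more than 1.5 times, among these genes and over all genes alike.

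IVDS3 was compared with ES cells to see which of them was higher. The rule does not use that order, but it asks both groups to lie well below stage 2, which removes genes that move steadily from ES cells to IVDS3, so the share of genes called is shaped by the choice and nothing is read from it. Of the 65 genes, 17 were called, or 26.2%, against 49.7% of all genes. Of these, 9 were higher in IVDS3, against 21.1% of all genes, and 8 were lower, against 28.6% of all genes. BMP2 and EDDM3A stayed above their ES values, and CCDC160, GREB1 and EPOP ended below them. The median difference was -0.04, against -0.13 for all genes, and 41 genes lay within 0.5 of ES cells, 13 were higher by more and 11 lower by more. By number, the median was -0.15 between the arrays numbered 1 (22 genes above 0 and 43 below) and 0.26 between those numbered 2 (44 above and 21 below). The balance moved with the ES arrays: without ES replicate 1, 14 genes were called higher and 6 lower (21.1% and 30.7% of all genes), and without ES replicate 2, 2 were higher and 12 lower (19.2% and 25.3% of all genes). Without either IVDS3 array, 8 genes were called (36.7% of all genes without replicate 1 and 38.2% without replicate 2). At an unadjusted p under 0.05 there were 20, beside 56.0% of all genes. A gene without a call has not been shown to be back at its ES value. In IVDS3 6 of 7 pluripotency markers fell and 1 rose, 7 of 10 fibroblast markers rose and 2 fell, and 4 of 5 neuron markers rose and 1 fell. The part of any of these in these differences was not tested.

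The calls of 5 genes held whichever array was left out. BMP2, at -0.68 and -0.63 in IVDS3, against -1.70 and -1.89 in ES cells, rose by 1.14 ± 0.24 (adjusted p 0.00355). EDDM3A, at -0.68 and -0.34 in IVDS3, against -2.10 and -2.22 in ES cells, rose by 1.65 ± 0.33 (adjusted p 0.00305). For both genes the groups did not overlap, and both were still lower in IVDS3 than at stage 2, as the rule requires. CCDC160, a gene of little known function, at -2.84 and -2.56 in IVDS3, against -0.80 and -1.70 in ES cells, fell by 1.45 ± 0.25 (adjusted p 0.00137). GREB1, at -2.85 and -2.58 in IVDS3, against -1.08 and -1.86 in ES cells, fell by 1.25 ± 0.29 (adjusted p 0.00611). EPOP, at -1.69 and -1.52 in IVDS3, against -0.33 and -0.54 in ES cells, fell by 1.17 ± 0.27 (adjusted p 0.00551). In these 3 genes too the groups did not overlap. Both IVDS3 arrays lay above both ES arrays in 18 of the 65 genes, against 29.1% of all genes, and both ES arrays above both IVDS3 arrays in 15, against 45.0% of all genes.

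Other genes called higher in IVDS3 than in ES cells rested on single arrays. TFPI rose by 2.18 ± 0.75 (adjusted p 0.0368, but 0.176 without ES replicate 2, 0.0516 without either IVDS2-P array, and 0.125 and 0.11 without replicates 1 and 2 of IVDS3). DACH1 rose by 1.59 ± 0.45 (adjusted p 0.0165, but 0.053 without ES replicate 2 and 0.074 and 0.0623 without replicates 1 and 2 of IVDS3). RASGRP1, an activator of Ras in blood cells, rose by 1.28 ± 0.30 (adjusted p 0.00674, but 0.0501 without ES replicate 2). CXCR4 rose by 1.06 ± 0.39 (adjusted p 0.0495), which was lost without any array other than ES replicate 1, with an adjusted p between 0.0516 and 0.325. The size moved with the ES arrays as well. Without ES replicate 2 the difference was 0.74 for TFPI, 0.74 for DACH1 and 0.35 for CXCR4, and without ES replicate 1 it was 3.62, 2.45 and 1.78 for the same genes. In DACH1, TFPI and CXCR4 the IVDS3 arrays lay closer together than the ES arrays, and ES replicate 2 was the lowest array of the series.

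Among genes called lower in IVDS3 than in ES cells, TAL2 fell by 1.22 ± 0.36 (adjusted p 0.0192, but 0.116 without ES replicate 1 and 0.13 without IVDS3 replicate 2). PRTG fell by 1.03 ± 0.33 (adjusted p 0.03, but 0.179 without ES replicate 1, where the difference was -0.63, and 0.0729 and 0.136 without replicates 1 and 2 of IVDS3). SLC13A4 fell by 0.92 ± 0.22 (adjusted p 0.00657, but 0.0581 without IVDS3 replicate 2). In these 3 genes the IVDS3 arrays lay below the ES arrays. The remaining calls, ZNF521, TMEM132C and C5 higher in IVDS3 and CD226 and RND1 lower, were also lost without at least 1 array. Of the 19 genes in the lists, BMP2 was the only 1 called, against 49.7% of all genes. WNT1 differed by -0.13 ± 0.16 (adjusted p 0.528), CDON by -0.17 ± 0.16 (adjusted p 0.38), GAS1 by -0.06 ± 0.21 (adjusted p 0.818) and COL2A1 by -0.06 ± 0.30 (adjusted p 0.88).

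**Figure D4:**
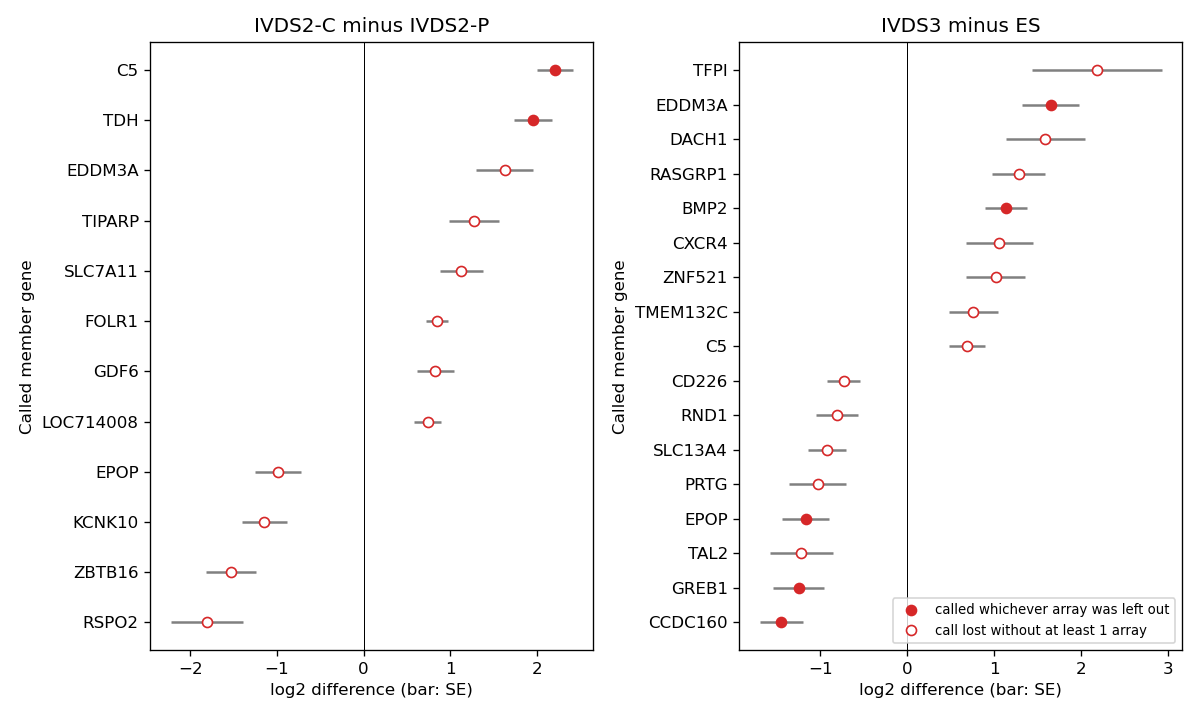
Log2 differences (bars: SE) of the stage 2 peak genes called by limma, for IVDS2-C minus IVDS2-P (left, 12 genes) and IVDS3 minus ES (right, 17 genes). Filled points are calls that held whichever array was left out, C5 and TDH on the left and EDDM3A, BMP2, EPOP, GREB1 and CCDC160 on the right, and open points were lost without at least 1 array.

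The whole stage 2 cultures were compared with the mean of their centre and periphery. Here too the choice may shape the share of genes called, and nothing is read from it. In this comparison 2 of the 65 genes were called, or 3.08%, against 0.781% of all genes. Both were higher in IVDS2, against 0.235% of all genes, and 0 were lower, against 0.546% of all genes. At an unadjusted p under 0.05 there were 19 of 65, in either direction, beside 15.8% of all genes. CCKBR rose by 2.03 ± 0.36 and SLC13A4, at 1.13 and 1.34 in IVDS2, against 0.08 and -0.08 in IVDS2-C and 0.10 and 0.67 in IVDS2-P, rose by 1.04 ± 0.19, with an adjusted p of 0.0494 each. Both calls lie at the threshold. For CCKBR the call was kept only without IVDS2-C replicate 1, and for SLC13A4 only without that array or IVDS2-P replicate 2. Without each other array the adjusted p lay between 0.0548 and 0.385 for CCKBR and between 0.0615 and 0.401 for SLC13A4, both highest without IVDS2 replicate 2. The count of calls moved with the array left out and was highest without IVDS2-C replicate 1, as it was over all genes. GNG4 differed by 1.61 ± 0.31 (adjusted p 0.0575) and BHLHE22, at 0.27 and -0.28 in IVDS2, against 1.19 and 0.58 in IVDS2-C and 1.12 and 1.72 in IVDS2-P, by -1.16 ± 0.24 (adjusted p 0.0752), and neither passed. The difference of GNG4 lay between 1.17 and 2.04 with 1 array left out, and its outcome changed with the array.

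The stage 2 peak genes were a small share of each list they stand in. The lists were chosen with earlier results of these data known, and the rule uses the difference between stage 2 and ES cells. Shares of list genes above ES cells are thus given as a description, and nothing is read from them. Of 59 measured WNT pathway genes, 14 stood at least 1 above ES cells at stage 2, against 3.55% of all genes, and 6 of these met the rule. The list's median difference between stage 2 and ES cells was -0.01. Between centre and periphery, 5 genes of the list rose and 7 fell, with a median of -0.12, and between IVDS3 and ES cells 17 rose and 21 fell, with a median of -0.09. Of all genes, 5.64% rose and 3.95% fell in the former comparison, and 21.1% rose and 28.6% fell in the latter. Unlike WNT1, the ligand WNT6 was higher in IVDS3 than in ES cells by 4.96 (adjusted p 5.27e-06) and in the centre than in the periphery by 3.45 ± 0.31 (adjusted p 0.0007). The secreted WNT inhibitor SFRP1 fell by 6.20 in IVDS3 (adjusted p 4.8e-06) and fell by 2.89 ± 0.38 in the centre (adjusted p 0.00277).

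Of 12 hedgehog genes, 3 stood at least 1 above ES cells, of 39 genes of the BMP, TGF-beta and activin pathway 4, and of 24 neural crest and border genes 10. The share over all genes was 3.55%. Between centre and periphery, 1 hedgehog gene rose and 0 fell, 5 BMP pathway genes rose and 2 fell, and 5 crest and border genes rose and 2 fell. Of all genes, 5.64% rose and 3.95% fell there. The gene that rose in the hedgehog list was HHIP, an inhibitor that binds the ligand, by 1.40 ± 0.19 (adjusted p 0.00334). In the crest list, TFAP2B, a border transcription factor, rose by 1.91 ± 0.19 (adjusted p 0.000945), and TWIST1, a factor of migrating mesenchymal cells, fell by 2.91 ± 0.35 (adjusted p 0.00213). TFAP2B was also higher in IVDS3 than in ES cells, by 3.09 (adjusted p 4.97e-06), where SOX9 differed by 0.39 ± 0.22 (adjusted p 0.174).

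Of 69 matrix genes, 13 stood at least 1 above ES cells, of 81 guidance and adhesion genes 16, and of 23 trophoblast and amnion genes 13. Here too the share over all genes was 3.55%. Between centre and periphery, 12 matrix genes rose and 7 fell, 8 guidance and adhesion genes rose and 10 fell, and 15 trophoblast and amnion genes rose and 0 fell. Of all genes, 5.64% rose and 3.95% fell there. CCKBR was the only stage 2 peak gene of the last list and was not among the 15, with a difference of 0.81 ± 0.42 (adjusted p 0.266). The other 6 lists (neural plate factors, proneural and neuronal genes, mesoderm and heart, Notch, growth factor receptor signalling, and retinoic acid) held 0 stage 2 peak genes. These counts depend on how the lists were drawn up. The receptors KIT and EPHA4 stand in other lists, and CTNNA2, the alpha catenin of neurons, stands in no list. DTX4, BHLHE22 and TAL2 also stand in no list. The rule leaves out neural genes by name, and PAX3, EMX2 and LMX1A had otherwise met it. A count of 0 thus does not show that no gene of these kinds peaked. On the chromosomes, 64 of the genes could be placed, on 19 chromosomes with at most 7 on 1. The closest pair in gene order was RND1 and WNT1, with 4 protein-coding genes between them.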

How the data were processed

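Total RNA of 10 samples was measured on Affymetrix rhesus macaque arrays. The authors deposited 1 table of log2 expression values of 44294 probe sets, made with RMA per the submitters' processing notes. The version is not given in the sources used here, and the log base, not stated, was read as log2, the scale RMA gives. As deposited, 0 probe sets had a median over the 10 arrays beyond 1e-05, so the values had been centred per probe set. The 84 control probe sets were left out. Of the other 44210, 22802 had 1 gene in the platform annotation, 316 had several and 21092 had none, and probe sets were averaged by gene (13191 genes). By gene number, 22507 of the first had an entry in a table of RefSeq genes, which changed 0 names and gave the gene order.

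Groups came from the sample titles. A linear model of all arrays, with group as the only factor, was fitted with limma 3.58.1 in R 4.3.3. Variances were moderated by empirical Bayes, with 5 residual and 3.94 prior degrees of freedom and a prior SD of 0.142. The tests were IVDS2-C against IVDS2-P, IVDS3 against ES, and IVDS2 against the mean of IVDS2-C and IVDS2-P. Genes were called, and said to rise or fall, where the adjusted p was below 0.05 (Benjamini-Hochberg, 13191 genes a comparison). Errors are standard errors of the fit. The script was tested on simulated data. Stage 2 against ES or IVDS3 was not tested, since the rule uses it.

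The stage 2 peak genes and the 13 gene lists (674 genes, 494 measured) were chosen with earlier results of these data known. Named by rule were the 15 genes of largest excess, those in a list, up to 6 called genes per direction and test, the 3 nearest to the threshold on each side, and up to 4 other called genes of each list, of which the text gives some. Further genes were named after their values were seen. Alternatives were other scaling, probe set choice, thresholds and fits, and leaving out each array. Sequences were not analysed here.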

Additional observations from a re-analysis of the deposited data

How the results depend on the processing

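The rule gave 112 genes at a difference of 0.75 and 25 at 1.5, in place of 65. It gave between 56 and 79 when 1 array was left out, 65 with arrays centred on their medians (62 of them the same genes) and 85 where a gene took its most variable probe set (63 of the 65 among them). Calls between centre and periphery, 12 in all, were 1 without variance moderation and between 4 and 16 when 1 array was left out. Calls between IVDS3 and ES cells, 17 in all, were 8 without moderation and between 8 and 20 when 1 array was left out. The 2 calls of IVDS2 against the mean of IVDS2-C and IVDS2-P became 0 with centred arrays, 1 with the most variable probe set, 0 with only the arrays compared, 0 without moderation, and between 0 and 6 when 1 array was left out. With the replicate number as a block both calls were lost (adjusted p 0.0601 for CCKBR and 0.0576 for SLC13A4) and 1 other gene, GNG4, was called (adjusted p 0.0482). The block gave 13 calls between centre and periphery (10.9% of all genes) and 17 between IVDS3 and ES cells (50.1% of all genes). Numbers are not known to pair the samples: of 10 pairs of groups, 5 had deviations correlated above 0.1 (range -0.21 to 0.28). Over all genes, the calls between centre and periphery were 1265 in the fit of all arrays, 614 with only the arrays compared and 77 without moderation. Of IVDS2 against the mean they were 103, 11 and 0, with 96 for centred arrays and 125 for the most variable probe set. Between IVDS3 and ES cells, 6557 genes were called in the fit of all arrays and 5840 without moderation. The calls over all genes also moved when 1 array was left out, so such movement was not particular to the stage 2 peak genes. The cause of these changes was not tested. For the genes called in the fit of all arrays, 327 of 465 values under other settings kept their side of the threshold. Of the same values, 138 lost it and 0 turned their sign. Genes not called in that fit were not counted here. With 2 arrays a group and no intensities in the centred values, signal over background could not be judged.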
